A study of Homo sapiens with 18 samples.

Results

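The steroid glucuronidation and reduction enzymes described here are 10 human genes listed by name: UGT2B4, UGT2B7, UGT2B10, UGT2B11, UGT2B15, UGT2B17, UGT2B28, AKR1C3, SRD5A1 and HSD17B4. The list names genes of a pathway, and no value of these arrays enters its rule. It was drawn up with earlier results of these data known. All array probe sets that the gene table gives to them were taken, which gave 12 probe sets of 7 genes, out of 19775 genes with a probe set of their own. No probe set is named for UGT2B7, UGT2B10 or UGT2B11 in the table used here, so these 3 genes have no values below. Of the 12 probe sets, 10 exceeded a floor of 4 (log2) on 3 or more arrays and were tested.

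The study measured total RNA of 2 human prostate cancer cell lines on 18 expression arrays, 3 in each of 6 groups, after changing the level of the homeobox transcription factor ONECUT2. Both 22Rv1, derived from a xenografted prostate carcinoma, and LNCaP, derived from a lymph node metastasis, are established lines. The 22Rv1 groups were ONECUT2 overexpression (OE), ONECUT2 shRNA (shONECUT2), scramble shRNA (scramble) and control, and the LNCaP groups were OE and control. The OE cells carried a lentiviral vector with the full-length ONECUT2 cDNA and a tag. The labels describe the control cells only as vehicle, and transduced cells were infected with polybrene and kept as stable lines under puromycin. The protocol lists a pair of ONECUT2 shRNA clones. The titles of the shONECUT2 arrays carry the ending of 1 clone number, and those of the scramble arrays carry a number that matches neither. All cells grew in RPMI-1640 with fetal bovine serum and antibiotics. Whether the 3 arrays within each group stem from separate cultures is not in the labels, so the p-values below reflect array-to-array spread that may be only technical.

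Androgens leave prostate cells largely as glucuronides. The UGT2B enzymes sit in the endoplasmic reticulum and join glucuronic acid from UDP-glucuronate to steroids, bile acids and drugs, and UGT2B15, UGT2B17 and UGT2B28 act on dihydrotestosterone and its metabolites. Before that step, AKR1C3 reduces androstenedione to testosterone and SRD5A1 reduces testosterone to dihydrotestosterone, while HSD17B4 is a peroxisomal enzyme that oxidises estradiol and takes part in the beta-oxidation of fatty acids.

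The arrays were alike in brightness, with medians of 3.26 to 3.34 on the log2 scale. ONECUT2, read by the probe set with its highest mean, gave log2 values of 8.59 to 8.85 in 22Rv1 OE against 8.15 to 8.25 in 22Rv1 control, and 7.23 to 7.31 in LNCaP OE against 6.53 to 6.72 in LNCaP control. In the arrays labelled shONECUT2 it read 8.46 to 9.12, against 6.63 to 7.08 in the arrays labelled scramble. Other tested ONECUT2 probe sets did not all match it. The probe set with the largest LNCaP OE rise (mean log2 6.61 against 2.93) read 2.98 in shONECUT2 and 2.81 in scramble, under the floor. Another was lower in 22Rv1 OE (4.46 against 5.43) but higher in shONECUT2 (5.44 against 3.70). The last was higher in 22Rv1 OE (8.36 against 7.20) and in shONECUT2 (8.57 against 6.60). Except by the probe set under the floor in both shRNA groups, the labelled knockdown thus had more ONECUT2 signal than its labelled control. Both groups are therefore named below only as labelled, and no direction is drawn from the knockdown. Whether the labels of these groups were exchanged was not tested. Replicate 1 of LNCaP OE stood apart: it correlated at 0.969 with the LNCaP control arrays, against 0.948 and 0.953 for replicates 2 and 3. The LNCaP OE changes of the listed enzymes are therefore given with and without it, a choice made after the values were seen. The p-values without it take their error mostly from the other, tighter groups. They therefore do not measure the spread between the LNCaP OE arrays left. The array holds a pair of RNA quality measures. The log2 difference between the 3' and 5' beta-actin probe sets was 8.06 ± 0.70 in 22Rv1 OE against 4.11 ± 0.41 in 22Rv1 control (SD, n = 3), and 2.85 ± 0.56 in LNCaP OE against 2.94 ± 0.25 in LNCaP control. The same difference for GAPDH was -0.43 ± 0.13 in 22Rv1 OE against -0.70 ± 0.09 in 22Rv1 control, and -0.68 ± 0.07 in LNCaP OE against -0.68 ± 0.07 in LNCaP control. Both thus moved with 22Rv1 OE, beta-actin by far more, and their part in the 22Rv1 OE results below was not tested.

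The sequence just upstream of a gene is shown because ONECUT2 was the factor changed, and because several of these genes moved together. RefSeq's promoter table (GRCh38.p14) held 8 entries for 7 of the 10 genes, and UGT2B4, UGT2B17 and UGT2B28 were not among them. The 250 bases before the annotated start are printed for the 4 genes that have both a probe set and an entry. They read 5' to 3' on the strand of the gene, with capitals marking ATTGAT on either strand, the core bound by ONECUT factors. UGT2B15 lies at chr4:68670653-68670902 on the minus strand, and AKR1C3 has an upstream start at chr10:5048531-5048780 and another at chr10:5094164-5094413, both on the plus strand. SRD5A1 lies at chr5:6633190-6633439 and HSD17B4 at chr5:119452247-119452496, both on the plus strand.
UGT2B15: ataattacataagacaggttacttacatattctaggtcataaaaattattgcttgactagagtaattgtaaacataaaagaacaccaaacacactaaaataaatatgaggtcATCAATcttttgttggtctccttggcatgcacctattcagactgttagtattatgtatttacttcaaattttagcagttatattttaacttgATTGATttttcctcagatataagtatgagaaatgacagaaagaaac
AKR1C3, upstream start: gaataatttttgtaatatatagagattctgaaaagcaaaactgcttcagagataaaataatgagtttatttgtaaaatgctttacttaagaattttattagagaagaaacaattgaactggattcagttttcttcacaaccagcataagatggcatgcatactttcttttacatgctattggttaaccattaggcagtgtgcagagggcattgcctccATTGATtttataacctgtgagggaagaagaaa
AKR1C3, other start: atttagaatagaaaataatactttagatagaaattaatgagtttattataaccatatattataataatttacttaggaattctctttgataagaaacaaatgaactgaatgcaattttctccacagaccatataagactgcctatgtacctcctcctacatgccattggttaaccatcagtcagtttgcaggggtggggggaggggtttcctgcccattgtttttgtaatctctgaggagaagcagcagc
SRD5A1: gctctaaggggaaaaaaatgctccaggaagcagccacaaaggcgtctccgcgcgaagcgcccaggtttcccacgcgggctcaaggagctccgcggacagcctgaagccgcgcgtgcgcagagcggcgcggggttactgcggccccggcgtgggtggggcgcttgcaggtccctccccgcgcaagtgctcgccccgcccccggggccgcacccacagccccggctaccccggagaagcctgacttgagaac
HSD17B4: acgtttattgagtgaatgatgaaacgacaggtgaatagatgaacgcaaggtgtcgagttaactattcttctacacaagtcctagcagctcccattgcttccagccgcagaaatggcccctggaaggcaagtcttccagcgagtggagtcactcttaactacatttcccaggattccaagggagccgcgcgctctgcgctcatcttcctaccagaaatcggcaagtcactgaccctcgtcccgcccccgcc

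UGT2B15 held ATTGAT 2 times, at bases -138 to -133 (read there as its reverse complement) and -46 to -41 from the start. The upstream AKR1C3 start held it 1 time, at -32 to -27, and the other AKR1C3 start, SRD5A1 and HSD17B4 held it 0 times. ATTGAT occurred in 5.58% of all 35116 promoters of this length, and in 18.7% of the 2534 promoters with at most 36% G and C. The UGT2B15 promoter is 28.4% G and C and the AKR1C3 promoters 32.0% and 35.6%, whereas those of HSD17B4 and SRD5A1 are 52.8% and 70.8%. The other core form, ATCGAT, was in 0.655% of all promoters and in none of the printed ones. The motif AGAACA, an arm of the androgen response element, was found 1 time in UGT2B15, at -172 to -167. It was in 12.4% of all promoters and in 23.5% of those with at most 36% G and C. It overlapped no other match. These matches describe letters and show no binding.

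The 10 tested probe sets are of 7 genes. Those called were all lower in OE of either line and in the arrays labelled scramble against control. In the arrays labelled shONECUT2 against scramble those called were all higher, namely UGT2B4 and 2 probe sets of SRD5A1. For 22Rv1 OE the number called lower was near the share over all tested probe sets. In 22Rv1 OE against control, 3 probe sets were lower and 0 higher in limma at an adjusted p under 0.05, with 57.0% of all 24871 tested probe sets called, 30.8% higher and 26.2% lower. All 10 fitted changes were below 0, with a median of -0.46 against 0.03 over all tested probe sets. That of UGT2B17 was only -0.01, with both 22Rv1 groups under the floor, and took the other sign in 5 alternative settings. In LNCaP OE against control, 8 were lower and 0 higher, with 57.8% of all tested probe sets called, 28.3% higher and 29.5% lower. All 10 were again below 0, with a median of -1.80 against 0.00, although AKR1C3 among them had both means under the floor. The count of 8 rests on error pooled over all groups. Fits of the 2 groups alone called 2 of the 10 in LNCaP OE, UGT2B4 and HSD17B4 (40.9% of all tested probe sets). They called 6 in 22Rv1 OE (69.2%). In the arrays labelled shONECUT2 against scramble, 3 were higher and 0 lower, with 26.5% of all tested probe sets called, 12.4% higher and 14.1% lower, and medians of 0.89 for the 10 and -0.03 for all. Their 3 changes below 0 had adjusted p-values of 0.676 to 0.962. In scramble against 22Rv1 control, 3 were lower and 0 higher, with 21.6% of all tested probe sets called, 10.8% higher and 10.8% lower, and medians of -1.0 and 0.03. These last comparisons share the scramble or control arrays with the others, so their values are set side by side only. The arrays of the groups compared did not overlap for 8 of the 10 in 22Rv1 OE against control (73.2% of all tested probe sets), 4 in LNCaP OE against control (55.3%), 7 in shONECUT2 against scramble (49.8%), 8 in scramble against control (48.0%), 7 in shONECUT2 against control (34.0%) and 7 in LNCaP control against 22Rv1 control (77.4%).

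**Figure D1:**
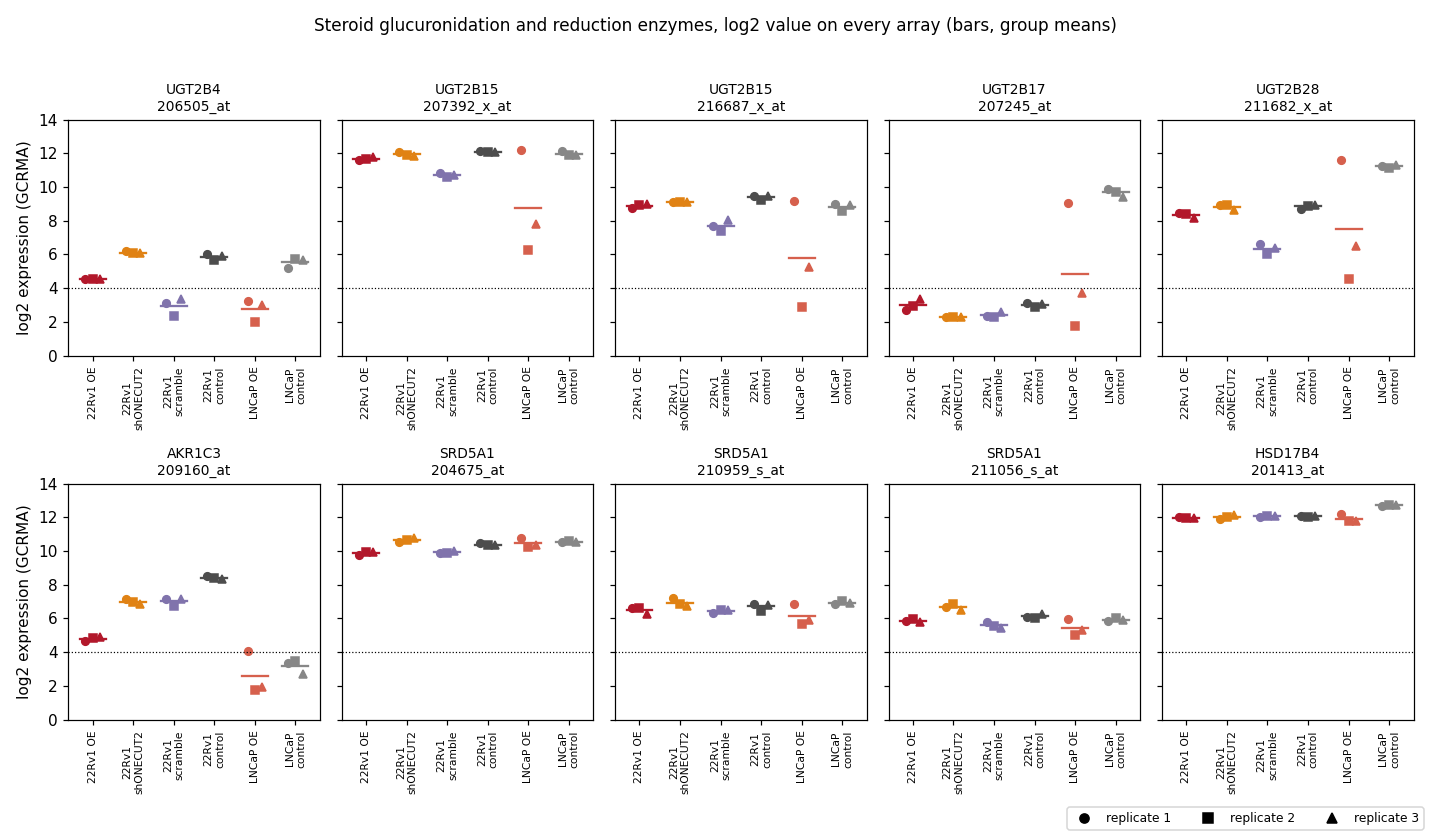
Log2 expression of the 10 tested probe sets on each of the 18 arrays, with a panel for each probe set, a point for each array and a bar for each group mean. The dotted line is the log2 value of 4 used as the floor. UGT2B4 lies under it on all arrays labelled scramble and all LNCaP OE arrays, AKR1C3 is near 8.41 in 22Rv1 control and 4.79 in 22Rv1 OE, and the LNCaP OE points of UGT2B15, UGT2B17 and UGT2B28 are spread widely.

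UGT2B4, which conjugates bile acids and steroids and is best known from liver, was lower in OE cells of both lines and lower in the arrays labelled scramble. Its log2 values were 4.56, 4.54 and 4.58 in 22Rv1 OE, against 6.05, 5.65 and 5.93 in 22Rv1 control. The 22Rv1 OE arrays were thus nearly identical and all lay below the controls. The fitted log2 change was -1.32 ± 0.28 (SE), or 2.50-fold lower (limma, adjusted p = 0.000649). In LNCaP OE its log2 values were 3.25, 2.00 and 3.03, against 5.22, 5.74 and 5.69 in LNCaP control. All 3 LNCaP OE arrays lay under the floor of 4, so the change can only be bounded, at 2.93-fold lower or more (adjusted p = 2.76e-07, limma, or 1.32e-08 without replicate 1).

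The largest gap of UGT2B4 within 22Rv1 was between the shRNA groups. It read log2 values of 6.20, 6.06 and 6.08 in the arrays labelled shONECUT2, against 3.14, 2.37 and 3.38 in those labelled scramble. The shONECUT2 arrays were at least 4.32-fold higher (limma, adjusted p = 5.3e-07). Set against the 22Rv1 control, the arrays labelled scramble were at least 3.68-fold lower (adjusted p = 1.68e-06), whereas those labelled shONECUT2 had a log2 change of 0.23 ± 0.28 (adjusted p = 0.739). The separation of these groups thus sat in the scramble arrays. Ordered by mean log2 level, shONECUT2 was highest with 6.11 ± 0.07 (SD, n = 3 here and in the other orders), then 22Rv1 control with 5.88 ± 0.20 and LNCaP control with 5.55 ± 0.29, whose arrays overlapped. 22Rv1 OE followed with 4.56 ± 0.02, and scramble with 2.96 ± 0.53 and LNCaP OE with 2.76 ± 0.67 overlapped at the bottom.

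Another liver gene, ALB, which encodes albumin, had a like order within 22Rv1. Its log2 values were 10.90 to 11.02 in 22Rv1 OE against 12.60 to 12.85 in 22Rv1 control, and 12.86 to 13.12 in shONECUT2 against 10.50 to 10.86 in scramble. Of the 8 hepatocyte marker genes checked, the other 7 read under 4 on every 22Rv1 array, and ALB itself read under 4 on every LNCaP array. TTR, among those 7, read 4.07 to 4.28 in LNCaP control and 2.74 to 3.85 in LNCaP OE, and the rest stayed under 4 there. In bulk RNA, fewer cells expressing a gene and less of its RNA per cell cannot be told apart.

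UGT2B15, which glucuronidates dihydrotestosterone and androstanediol, was much lower on 2 of the 3 LNCaP OE arrays and moderately lower on the arrays labelled scramble. Its brighter probe set read log2 values of 11.61, 11.67 and 11.76 in 22Rv1 OE, against 12.13, 12.09 and 12.10 in 22Rv1 control. The arrays labelled shONECUT2 read 12.07, 11.89 and 11.86, against 10.81, 10.58 and 10.70 in scramble. The 22Rv1 groups were tight, and in both pairs no array of one group reached the other. LNCaP OE read 12.19, 6.29 and 7.80, against 12.14, 11.92 and 11.87 in LNCaP control. There replicate 1 lay at the control level and replicates 2 and 3 far below it. The second tested probe set gave the same picture, with 8.74, 8.92 and 9.02 in 22Rv1 OE against 9.45, 9.23 and 9.48 in 22Rv1 control, and 9.19, 2.91 and 5.27 in LNCaP OE against 8.99, 8.58 and 8.96 in LNCaP control. The third UGT2B15 probe set stayed between 2.04 and 3.31 on all 18 arrays and was not tested.

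In limma the LNCaP OE change of the 2 UGT2B15 probe sets was -3.22 ± 0.91 (adjusted p = 0.00671) and -3.05 ± 0.95 (adjusted p = 0.0123), on the log2 scale. Without LNCaP OE replicate 1 these were -4.93 (adjusted p = 4.86e-12) and -4.75 (adjusted p = 6.07e-09). The OE arrays left still lay apart, at 6.29 and 7.80 and at 2.91 and 5.27. The tighter other groups then set most of the error, so these p-values are too small for that spread. Without replicate 2 the second probe set had -1.61 (adjusted p = 0.059). The model pools the spread of all groups, so the wide LNCaP OE group also sets the error within 22Rv1. There the 22Rv1 OE changes of -0.43 and -0.49 had adjusted p-values of 0.711 and 0.682, but 5.03e-05 and 0.00122 in a fit of the 2 groups alone. Likewise shONECUT2 against scramble gave 1.24 and 1.41, with adjusted p-values of 0.349 and 0.308 from all arrays and 1.75e-05 and 0.000223 from the 2 groups alone. Scramble against 22Rv1 control gave -1.41 and -1.68, with 0.313 and 0.242 from all arrays and 4.72e-06 and 0.000132 from the 2 groups alone. For the LNCaP OE change, the fit of the 2 groups alone gave adjusted p-values of 0.0989 and 0.126, so neither was called.

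By mean log2 level, the brighter UGT2B15 probe set ran 12.11 ± 0.02 in 22Rv1 control, 11.98 ± 0.14 in LNCaP control, 11.94 ± 0.11 in shONECUT2, 11.68 ± 0.08 in 22Rv1 OE, 10.70 ± 0.12 in scramble and 8.76 ± 3.06 in LNCaP OE. Neighbours overlapped among the first 3 groups and between scramble and LNCaP OE. Both UGT2B15 probe sets and that of UGT2B28 carry the suffix _x_at, which in the maker's naming marks probes that can match transcripts of other genes. No listed probe set was given to several genes by the table, but signal shared among UGT2B transcripts cannot be told apart here.

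UGT2B28, a close relative that also conjugates androgens, followed UGT2B15 with larger differences. Its log2 values were 8.47, 8.40 and 8.16 in 22Rv1 OE, against 8.73, 8.91 and 8.95 in 22Rv1 control. They were 8.95, 8.95 and 8.62 in shONECUT2, against 6.62, 6.03 and 6.37 in scramble. In LNCaP OE they were 11.58, 4.54 and 6.48, against 11.23, 11.15 and 11.31 in LNCaP control. Neither 22Rv1 pair overlapped, and in LNCaP OE replicate 1 was again at or above the controls while the other arrays were far below. The LNCaP OE change was -3.70 ± 1.09 on the log2 scale (limma, adjusted p = 0.00849), and -5.72 without replicate 1 (adjusted p = 4.04e-11). A fit of the 2 LNCaP groups alone gave an adjusted p of 0.108.

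Within 22Rv1, the UGT2B28 log2 change was 2.50 ± 1.09 in shONECUT2 against scramble and -2.52 ± 1.09 in scramble against control, with adjusted p-values of 0.104 and 0.116 from all arrays. The fits of the 2 groups alone gave 1.18e-05 and 9.89e-06, and leaving out LNCaP OE replicate 1 gave 3.84e-06 and 4.61e-06. Leaving out LNCaP OE replicate 2 gave 0.0261 and 0.0291. The 22Rv1 OE change was -0.52 ± 1.09 (adjusted p = 0.708, or 0.00121 from the 2 groups alone). By mean log2 level UGT2B28 was highest in LNCaP control with 11.23 ± 0.08, then 22Rv1 control with 8.86 ± 0.12 and shONECUT2 with 8.84 ± 0.19, which overlapped. 22Rv1 OE with 8.35 ± 0.16, LNCaP OE with 7.53 ± 3.64 and scramble with 6.34 ± 0.29 came last, and LNCaP OE overlapped both of its neighbours.

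UGT2B17, the other main androgen-conjugating enzyme of prostate cells, was measured above the floor only on LNCaP arrays. Its log2 values lay between 2.28 and 3.36 on all 12 22Rv1 arrays. In LNCaP OE they were 9.05, 1.75 and 3.73, against 9.91, 9.73 and 9.40 in LNCaP control. All 3 OE arrays lay below all 3 controls, but replicate 1 by less than 1 log2 unit and the others by far more. The fitted log2 change was -4.84 ± 1.13 (limma, adjusted p = 0.00174), with 2 of the 3 OE arrays under the floor. Without replicate 1 the remaining OE arrays were both under it, so the change is then only bounded, at 5.68 log2 units or more below control (adjusted p = 4.71e-12). A fit of the 2 LNCaP groups alone gave an adjusted p of 0.0557. With every 22Rv1 array under 4, no fold is given within that line. Ordered by mean log2 level, LNCaP control with 9.68 ± 0.26 stood above LNCaP OE with 4.84 ± 3.78, whose arrays reached below those of the 22Rv1 groups.

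**Figure D2:**
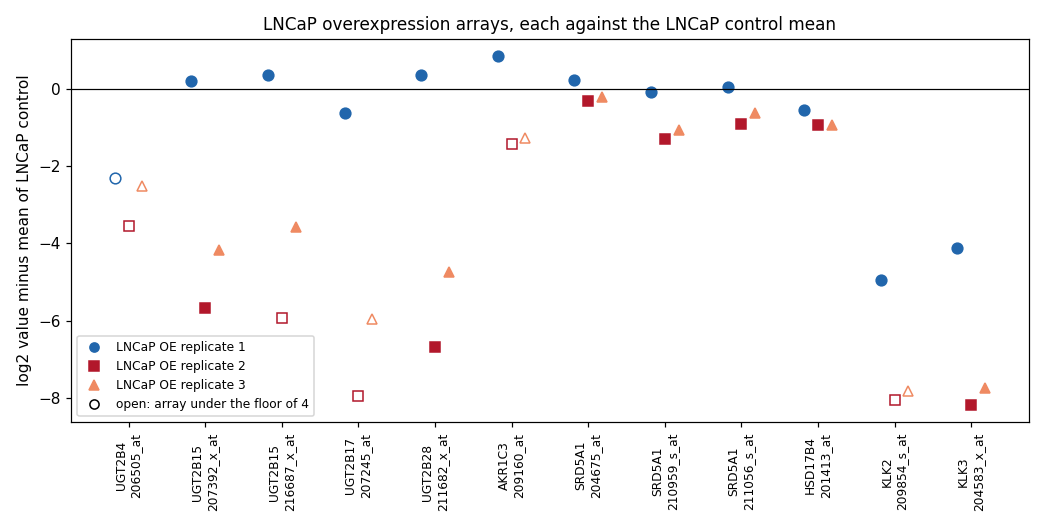
Each LNCaP OE array minus the mean of the 3 LNCaP control arrays (log2), for the 10 tested probe sets and for KLK2 and KLK3, with a symbol for each replicate, open where the array read under the floor of 4 and the difference has no exact size. Replicate 1 lies at 0.21, 0.35, -0.63 and 0.35 for UGT2B15 (2 probe sets), UGT2B17 and UGT2B28, where replicates 2 and 3 all lie at -3.57 or below. All 3 replicates lie below 0 for UGT2B4, UGT2B17, HSD17B4, KLK2 and KLK3, and for the second SRD5A1 probe set, where replicate 1 lies at -0.08.

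The plot of single LNCaP OE arrays shows that replicate 1 differed in which genes were low. Relative to the control mean, UGT2B4 was lower on all 3 OE arrays by at least 1.55 log2 units, the distance to the floor, and HSD17B4 had differences of -0.54, -0.94 and -0.93. UGT2B15, by its brighter probe set, had 0.21, -5.68 and -4.18, and UGT2B28 had 0.35, -6.69 and -4.75. UGT2B17 had -0.63 on replicate 1 and was at least 5.68 log2 units lower on replicates 2 and 3, which read under the floor. So UGT2B15 and UGT2B28 were near control on replicate 1. There UGT2B17, with a log2 value of 9.05, lay below the lowest control (9.40), and UGT2B4 read under the floor. The androgen-driven genes KLK2 (-4.94 on replicate 1 and at least 7.24 lower on replicates 2 and 3), KLK3 (-4.12, -8.17 and -7.74), TMPRSS2 (-4.27, -4.92 and -5.08) and FKBP5 (-2.54, -2.54 and -2.26) were lower on all 3 arrays. Over all tested probe sets, 19.5% lay more than 1 log2 unit from the control mean on replicate 1, against 30.1% and 27.9% on replicates 2 and 3. The 4 tested ONECUT2 probe sets gave no common order of the 3 arrays, with log2 values of 5.23, 7.17 and 7.43 for the one with the largest rise, 7.23, 7.31 and 7.28 for the one with the highest mean, and 6.53, 6.10 and 6.37 and 4.22, 3.40 and 4.04 for the others. The part of these differences in the UGT2B values was not tested.

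AKR1C3 had the largest change of the listed genes in 22Rv1 OE. Its log2 values were 4.64, 4.86 and 4.88 in 22Rv1 OE, against 8.51, 8.39 and 8.34 in 22Rv1 control. All OE arrays lay more than 3 log2 units below every control, close to the floor. The log2 change was -3.62 ± 0.41, or 12.3-fold lower (limma, adjusted p = 1.12e-06). The shRNA groups did not separate: shONECUT2 read 7.17, 7.0 and 6.83, against 7.18, 6.77 and 7.17 in scramble, a log2 change of -0.04 ± 0.41 (adjusted p = 0.956). Both shRNA groups lay below the control. For scramble the change was -1.37 ± 0.41 (adjusted p = 0.0226), a call lost in 5 of 18 fits that each left out 1 array, with adjusted p-values up to 0.0811. The 5 left out were control replicates 1, 2 and 3 and scramble replicates 1 and 2. For shONECUT2 it was -1.41 ± 0.41 (adjusted p = 0.0535, or 0.000153 from the 2 groups alone, 0.0469 with the replicate number as a block, and 0.0265 and 0.0432 without LNCaP OE replicate 2 or 3).

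In LNCaP, AKR1C3 was at background. Its log2 values were 4.05, 1.77 and 1.92 in LNCaP OE, against 3.39, 3.50 and 2.72 in LNCaP control. The groups overlapped and all but 1 of these arrays were under 4, so no fold is given (limma, adjusted p = 0.201, or 5.69e-06 without LNCaP OE replicate 1, with both means under 4). By mean log2 level the order was 22Rv1 control with 8.41 ± 0.09, scramble with 7.04 ± 0.23 and shONECUT2 with 7.0 ± 0.17, which overlapped, then 22Rv1 OE with 4.79 ± 0.13, and at the bottom LNCaP control with 3.20 ± 0.42 and LNCaP OE with 2.58 ± 1.27, which overlapped.

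**Figure D3:**
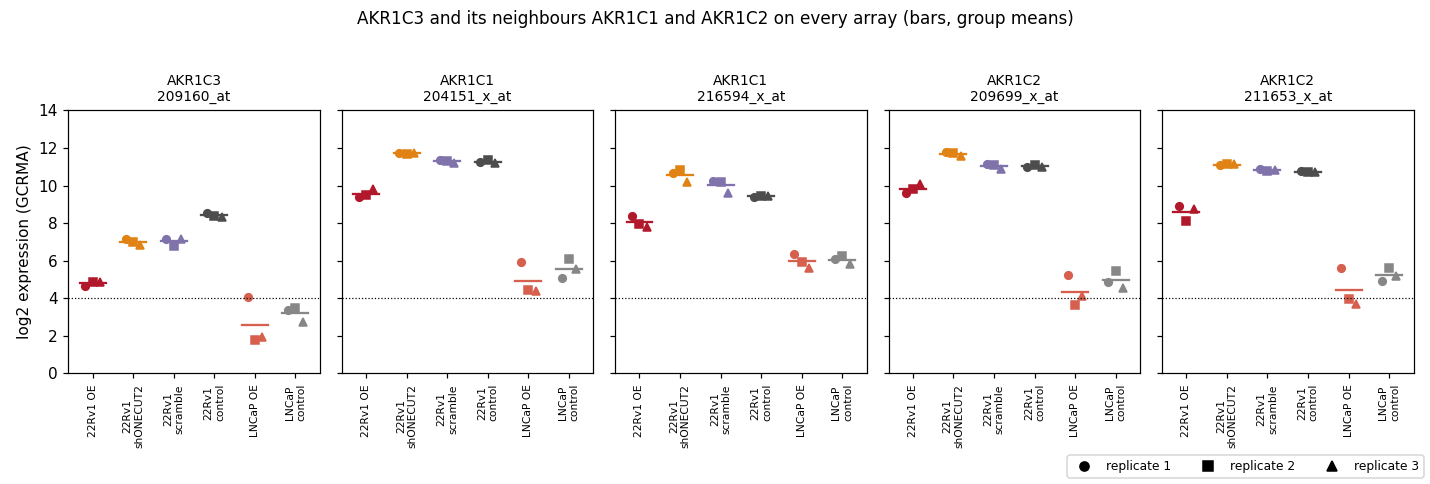
Log2 expression of AKR1C3 and of 2 probe sets each of AKR1C1 and AKR1C2 on every array, with bars for group means and a dotted line at the floor of 4. All 5 probe sets are lower in 22Rv1 OE than in 22Rv1 control, and of the 5 AKR1C3 alone lies lower in both shRNA groups than in that control.

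AKR1C1 and AKR1C2, close relatives that inactivate progesterone and dihydrotestosterone, were also lower in 22Rv1 OE. The AKR1C1 probe set with the higher mean read log2 values of 9.38, 9.48 and 9.80 in 22Rv1 OE, against 11.27, 11.33 and 11.22 in 22Rv1 control (log2 change -1.72 ± 0.31, limma, adjusted p = 0.000179). The AKR1C2 probe sets had changes of -1.22 ± 0.29 (adjusted p = 0.00196) and -2.14 ± 0.35 (adjusted p = 5.76e-05). AKR1C1 stayed near or above control in the shRNA groups, with 11.73, 11.66 and 11.73 in shONECUT2 against 11.38, 11.30 and 11.19 in scramble. These AKR1C1 and AKR1C2 probe sets carry the _x_at suffix, so signal shared among AKR1C transcripts cannot be told apart.

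By its brightest probe set SRD5A1 moved little, but within each 22Rv1 group the arrays were tight. The brightest of its 3 probe sets read log2 values of 9.74, 9.93 and 9.96 in 22Rv1 OE, against 10.45, 10.34 and 10.34 in 22Rv1 control, and 10.54, 10.65 and 10.80 in shONECUT2 against 9.91, 9.91 and 10.03 in scramble. In neither pair did the groups overlap. The log2 change was -0.50 ± 0.12 in 22Rv1 OE, or 1.41-fold lower (limma, adjusted p = 0.002), and 0.71 ± 0.12 in shONECUT2 against scramble, or 1.64-fold higher (adjusted p = 0.000372). The third probe set had -0.52 ± 0.19 in scramble against control (adjusted p = 0.0612, or 0.0131 from the 2 groups alone). The brightest gave -0.43 ± 0.12 (adjusted p = 0.018), in the same comparison, with adjusted p-values up to 0.0705 when control replicate 1 or scramble replicate 1 or 2 was left out. In LNCaP OE this probe set read 10.77, 10.24 and 10.33, against 10.51, 10.61 and 10.53 in LNCaP control, and the groups overlapped (-0.10 ± 0.12, adjusted p = 0.5).

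The other SRD5A1 probe sets did not fully match it. In LNCaP OE the second read 6.86, 5.65 and 5.88, against 6.87, 7.02 and 6.93 in LNCaP control, a log2 change of -0.81 ± 0.24 (limma, adjusted p = 0.00755, or 0.0846 from the 2 groups alone). The third had -0.49 ± 0.19 there (adjusted p = 0.0378), which was not called when LNCaP OE replicate 2 or 3 or any of the 3 LNCaP control arrays was left out (up to 0.211). Without LNCaP OE replicate 1 all 3 probe sets were lower, by -0.26, -1.18 and -0.76 (adjusted p = 0.017, 3.55e-06 and 0.000135). In shONECUT2 against scramble the third rose by 1.07 ± 0.19 (adjusted p = 0.000593), while the second had 0.47 ± 0.24 (adjusted p = 0.154, or 0.0258 from the 2 groups alone). In 22Rv1 OE they had -0.23 ± 0.24 and -0.27 ± 0.19 (adjusted p = 0.432 and 0.24). By mean log2 level of the brightest probe set, shONECUT2 with 10.66 ± 0.13, LNCaP control with 10.55 ± 0.05, LNCaP OE with 10.45 ± 0.29 and 22Rv1 control with 10.38 ± 0.06 overlapped neighbour by neighbour. Scramble with 9.95 ± 0.07 and 22Rv1 OE with 9.88 ± 0.12 overlapped below them.

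HSD17B4 was steady in 22Rv1 and changed in LNCaP. Its brighter probe set lay between 11.88 and 12.14 (log2) on all 12 22Rv1 arrays, and no comparison within that line was called (adjusted p = 0.425 to 0.975). In LNCaP OE it read 12.18, 11.77 and 11.78, against 12.70, 12.74 and 12.70 in LNCaP control. The groups did not overlap, and replicate 1 was again the closest to the controls. The log2 change was -0.81 ± 0.09, or 1.75-fold lower (limma, adjusted p = 1.27e-06), and -0.94 without replicate 1 (adjusted p = 4.62e-10). Its other probe set read 2.19 to 2.61 on all arrays and was not tested. By mean log2 level LNCaP control was highest with 12.71 ± 0.02. Scramble with 12.07 ± 0.03, 22Rv1 control with 12.06 ± 0.03, shONECUT2 with 12.00 ± 0.13, 22Rv1 OE with 11.97 ± 0.04 and LNCaP OE with 11.91 ± 0.23 followed, each overlapping the next.

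**Figure D4:**
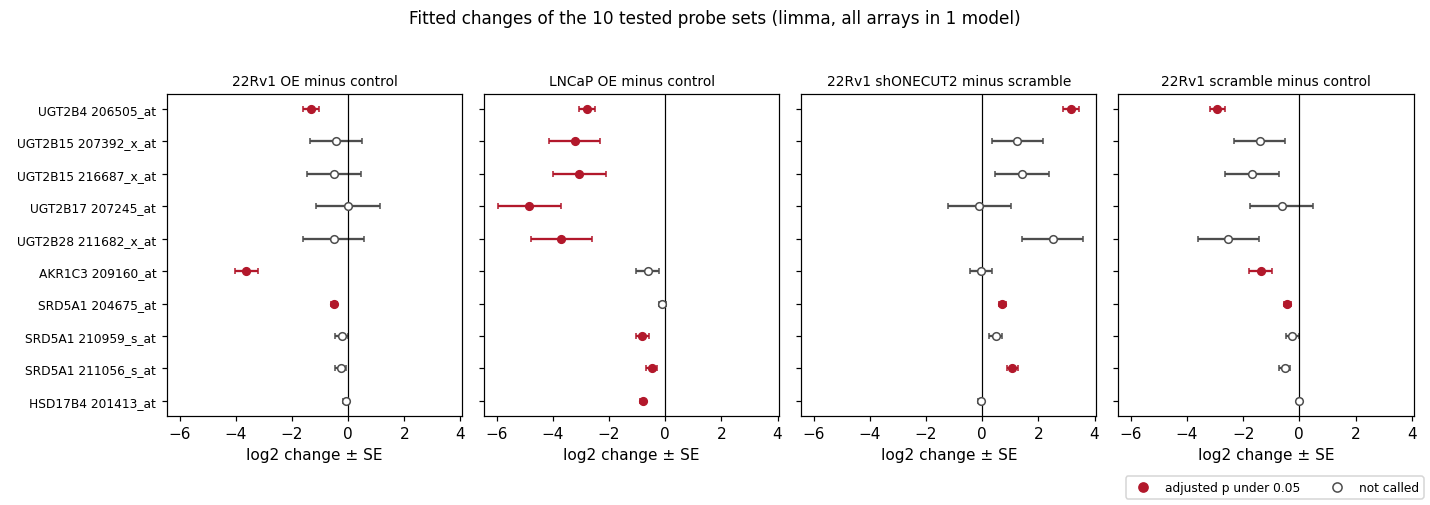
Fitted log2 changes with their SE for the 10 tested probe sets in 4 comparisons, from the limma model of all arrays. Filled points have an adjusted p under 0.05. The wide bars of UGT2B15, UGT2B17 and UGT2B28 are the same in every panel, and AKR1C3 lies at -3.62 in 22Rv1 OE. The plotted UGT2B4 changes in LNCaP OE, shONECUT2 against scramble and scramble against control involve a group under the floor and are only bounded, at least 4.32-fold in the second of these.

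Without overexpression, the lines differed in which of these enzymes they expressed. Of the 10 probe sets 2 were higher and 1 lower in LNCaP control than in 22Rv1 control, with 63.3% of all tested probe sets called, 32.4% higher and 30.8% lower. UGT2B17 was at least 51.3-fold higher in LNCaP (limma, adjusted p = 9.31e-05), as 22Rv1 was under the floor. AKR1C3 was at least 21.3-fold lower in LNCaP (adjusted p = 9.4e-09), as LNCaP was under the floor. HSD17B4 was higher in LNCaP by 0.66 ± 0.09 on the log2 scale (adjusted p = 8.94e-06). UGT2B28 had a log2 difference of 2.37 ± 1.09 (adjusted p = 0.0687, or 2.63e-10 from the 2 groups alone and 1.22e-06 without LNCaP OE replicate 1). UGT2B4 and the brightest probe sets of UGT2B15 and SRD5A1 had -0.33, -0.13 and 0.17 (adjusted p = 0.315, 0.91 and 0.23, and 0.0451 from the 2 groups alone for SRD5A1).

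Whether overexpression acted differently in the lines was tested as the LNCaP change minus the 22Rv1 change. It was called for 4 of the 10 probe sets, 1 above and 3 below 0, with 41.4% of all tested probe sets called, 17.0% above and 24.4% below 0. HSD17B4 had -0.72 ± 0.13 (limma, adjusted p = 0.000342), so its change lay further below 0 in LNCaP. UGT2B4 had -1.47 ± 0.39 (adjusted p = 0.0066), which rests on LNCaP OE arrays under the floor. At its bound the LNCaP change is -1.55 against -1.32 in 22Rv1, so a larger fall in LNCaP is not shown. AKR1C3 had 3.00 ± 0.57 (adjusted p = 0.000575), with a starting level in LNCaP already under the floor. A fall of AKR1C3 could not be read in LNCaP, so a different action in the lines is not shown. UGT2B17 had -4.83 ± 1.60 (adjusted p = 0.0242), with 22Rv1 under the floor in both groups. A fall of UGT2B17 could not be read in 22Rv1, so for it too a different action is not shown. The UGT2B17 call was lost in a fit of the 4 groups alone (0.0576), without LNCaP OE replicate 3 (0.059) and with no filter on low values (0.0723). For the 2 UGT2B15 probe sets and UGT2B28 the adjusted p-values were 0.0956, 0.143 and 0.11, and 4.19e-09, 2.75e-06 and 3.03e-08 without LNCaP OE replicate 1.

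The arrays labelled shONECUT2 had 0 of the 10 probe sets called in limma against 22Rv1 control, where 5.14% of all tested probe sets were called, 2.18% higher and 2.96% lower. Closest to the threshold were AKR1C3 with -1.41 (adjusted p = 0.0535) and SRD5A1 by the brightest and the third of its probe sets with 0.29 and 0.54 (adjusted p = 0.201 and 0.115). No other tool was run. Without LNCaP OE replicate 1 these probe sets, 3 of the 10, were called (adjusted p = 4.48e-05, 0.025 and 0.00858). Calls over all 24871 tested probe sets rose as well, from 1278 to 3748.

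Other genes of the glucuronidation pathway were read by their brightest probe set. Of 18 listed genes 11 had a probe set and 7 were tested. In 22Rv1 OE 1 rose and 3 fell (median log2 change -0.14), in LNCaP OE 4 rose and 3 fell (median 0.27), and in shONECUT2 against scramble 1 rose and 1 fell (median -0.15). Of all tested probe sets, 57.0%, 57.8% and 26.5% were called in these comparisons. UGDH, which makes the UDP-glucuronate that all UGT2B enzymes use, read log2 values of 12.34, 12.16 and 12.10 in LNCaP OE, against 10.76, 10.91 and 10.91 in LNCaP control. It rose by 1.34 ± 0.09 (limma, adjusted p = 3.08e-09), with all 3 OE arrays, replicate 1 included, above the controls. In shONECUT2 against scramble UGDH was higher by 0.35 ± 0.09 (adjusted p = 0.00971). UGT8, which puts galactose on ceramide, fell by 1.80 ± 0.19 on the log2 scale in 22Rv1 OE and by 1.23 ± 0.19 in LNCaP OE (adjusted p = 6.91e-07 and 4.46e-05). UXS1, which turns UDP-glucuronate into UDP-xylose, rose by 0.80 ± 0.14 in 22Rv1 OE (adjusted p = 0.000109), and the beta-glucuronidase gene GUSB had -0.61 ± 0.12 in LNCaP OE (adjusted p = 0.000524). The UDP-sugar transporter SLC35D1 had -1.14 ± 0.15 in 22Rv1 OE and -0.94 ± 0.15 in shONECUT2 against scramble (adjusted p = 6.36e-06 and 0.000221), and is among the LNCaP OE rises although it read under 4 in both LNCaP groups.

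Of 30 other genes of steroid reduction and oxidation, 26 had a probe set and 15 were tested. In 22Rv1 OE 3 rose and 5 fell (median -0.09), in LNCaP OE 2 rose and 3 fell (median -0.21), and in shONECUT2 against scramble 5 rose and 0 fell (median 0.41). The shares called over all tested probe sets were 57.0%, 57.8% and 26.5%. In 22Rv1 OE the calls with the smallest p were HSD17B7 (-0.80 ± 0.10), HSD17B8 (-1.12 ± 0.14) and HSD17B11 (-1.67 ± 0.26), with adjusted p-values of 2.81e-06, 5.76e-06 and 3.83e-05 in limma. HSD17B7 reduces a sterol in cholesterol synthesis, and HSD17B11 oxidises androstanediol. In LNCaP OE they were AKR1D1, which reduces bile acid precursors and was at least 3.22-fold lower (adjusted p = 3.86e-08), HSD17B14 (0.70 ± 0.16, adjusted p = 0.00139) and HSD17B1 (-0.53 ± 0.16, adjusted p = 0.00746). In shONECUT2 against scramble HSD17B7 rose by 1.23 ± 0.10, the retinal reductase RDH11 by 0.67 ± 0.08, and HSD17B6, which turns androstanediol back into dihydrotestosterone, by 1.20 ± 0.21 (adjusted p = 1.48e-07, 1.71e-05 and 0.000432).

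Of 23 genes of steroid synthesis, P450 and sulfation, 20 had a probe set and 9 were tested, with 4 up and 3 down in 22Rv1 OE (median 0.39), 3 up and 3 down in LNCaP OE (median 0.03), and 2 up and 2 down in shONECUT2 against scramble (median -0.10). Beside these counts stand shares of 57.0%, 57.8% and 26.5% called over all tested probe sets. PAPSS1, which makes the sulfate donor, fell by 1.26 ± 0.10 on the log2 scale in 22Rv1 OE (limma, adjusted p = 2.12e-08), FDX1 fell by 0.87 ± 0.09 (adjusted p = 5.46e-07), and the cholesterol sulfotransferase SULT2B1 was at least 1.5-fold higher (adjusted p = 1.02e-07). In LNCaP OE CYP11A1, which cuts the cholesterol side chain, was at least 1.94-fold lower (adjusted p = 1.18e-07), and CYB5A and PAPSS1 had -0.81 ± 0.08 and -0.61 ± 0.10 (adjusted p = 1.75e-07 and 6.2e-05). In shONECUT2 against scramble the steroid sulfatase gene STS had -1.21 ± 0.16, PAPSS2 1.74 ± 0.31 and PAPSS1 0.53 ± 0.10 (adjusted p = 3.01e-05, 0.000518 and 0.00092).

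HSD17B4 works in peroxisomal beta-oxidation, and of 19 other genes of that pathway 16 had a probe set and 15 were tested. In 22Rv1 OE 3 rose and 6 fell (median -0.07), in LNCaP OE 5 rose and 6 fell (median -0.13), and in shONECUT2 against scramble 2 rose and 4 fell (median -0.02). Across all tested probe sets 57.0%, 57.8% and 26.5% were called. CROT, which hands acyl groups to carnitine, fell by 1.25 ± 0.12 on the log2 scale in 22Rv1 OE and was higher by 0.81 ± 0.12 in shONECUT2 against scramble (limma, adjusted p = 1.95e-07 and 0.000115). PHYH, of phytanic acid oxidation, rose by 0.57 ± 0.07 in 22Rv1 OE and 0.88 ± 0.07 in LNCaP OE (adjusted p = 3.12e-06 and 1.74e-08). AMACR, a racemase of branched fatty acids, was at least 1.59-fold lower in 22Rv1 OE and at least 1.63-fold lower in LNCaP OE (adjusted p = 1.22e-06 and 1.01e-05), and EHHADH had -1.97 ± 0.32 in LNCaP OE (adjusted p = 5.69e-05). In shONECUT2 against scramble ECI2 had -0.57 ± 0.09 and PEX5 0.50 ± 0.11 (adjusted p = 0.000349 and 0.00253). The fall of HSD17B4 in LNCaP OE thus stood beside falls and rises of its pathway.

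Androgen-driven genes were read on the same arrays. Of 17 listed symbols, older ones included, 13 had a probe set and were tested, with 2 higher and 10 lower in 22Rv1 OE (median -1.56), 0 higher and 12 lower in LNCaP OE (median -2.69), where HOMER2 was the exception with -0.40 ± 0.21 (adjusted p = 0.113), and 2 higher and 3 lower in shONECUT2 against scramble (median -0.01). Over all tested probe sets the shares called in these comparisons were 57.0%, 57.8% and 26.5%, with 26.2%, 29.5% and 14.1% lower. FKBP5, ELL2 and ACP3 had the smallest p-values in 22Rv1 OE, with -1.68 ± 0.10, -2.02 ± 0.22 and at least 4.38-fold lower (limma, adjusted p = 1.37e-09, 6.54e-07 and 3.48e-06). TMPRSS2, FKBP5 and NDRG1 did so in LNCaP OE, with -4.76 ± 0.16, -2.45 ± 0.10 and -2.76 ± 0.15 (adjusted p = 4.96e-13, 7.99e-12 and 1.47e-10). In shONECUT2 against scramble NDRG1 had 1.04 ± 0.15 (adjusted p = 8.04e-05) and KLK3 had -4.41 ± 0.66 (adjusted p = 0.000162) while UGT2B4 and SRD5A1 were higher there.

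Marker genes of cell types were read on the same arrays. Of the prostate luminal markers, 8 of 10 had a probe set, and 7 of these read over 4 on every 22Rv1 control array and 8 on every LNCaP control array. In OE against control 1 rose and 5 fell in each line, where 57.0% (22Rv1) and 57.8% (LNCaP) of all tested probe sets were called. The log2 of their summed level was 12.60 to 12.77 in 22Rv1 OE against 12.39 to 12.54 in 22Rv1 control. It was 12.91 to 13.27 in LNCaP OE against 14.31 to 14.33 in LNCaP control. KRT18 made up most of the 22Rv1 sum, with 12.37 to 12.53 in OE against 11.66 to 11.82 in control, while KLK2 read 5.95 to 6.03 against 9.40 to 9.66. KRT8 was higher in LNCaP OE (10.21 to 11.06 against 8.92 to 9.32) but lower in 22Rv1 OE (6.79 to 7.78 against 7.83 to 8.10). The 4 leukocyte markers with a probe set, PTPRC among them, read under 4 on every array. Of the 4 endothelial markers PECAM1, CDH5 and CLDN5 did so too, and VWF exceeded 4 on 2 LNCaP control arrays, with 4.23 and 4.50, so none of the 4 passed the filter. Of 5 fibroblast markers 3 were tested, with COL1A1 higher and COL3A1 and LUM lower in OE of either line, although COL3A1 and LUM averaged under 4 in both LNCaP groups. Their log2 summed level was 9.77 to 9.86 in 22Rv1 OE against 8.08 to 8.25 in 22Rv1 control, and 10.62 to 12.01 in LNCaP OE against 7.66 to 8.30 in LNCaP control. COL1A1 changed by 2.12 ± 0.28 in 22Rv1 OE and 3.64 ± 0.28 in LNCaP OE on the log2 scale (limma, adjusted p = 6.77e-06 and 1.24e-08). The part of these shifts in the enzyme results was not tested.

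Genes whose pattern over the 18 arrays was most like each enzyme were ranked by Pearson's r, among 3523 genes whose group means span at least 2 log2 units. For UGT2B17 they were EFHC2 (0.985), PRKACB (0.979) and HTR2C (0.979). For AKR1C3 they were ERCC6L2-AS1 (0.978), FAM110B (0.973) and TNFRSF21 (0.970), and for HSD17B4 they were CSTA (0.971), CD163L1 (0.962) and MEIS1 (0.957). For UGT2B28 they were ZPLD1 (0.953), NRIP1 (0.891) and FKBP7 (0.879), and for UGT2B15 SLC7A11 (0.933), CNKSR2 (0.916) and TMEFF2 (0.916). For UGT2B4 they were ZBED3 (0.926), LONRF1 (0.917) and IFIH1 (0.883), and for SRD5A1 PRUNE2 (0.890), DDC (0.863) and RBM47 (0.840). The points share 6 groups and 2 lines, so a large r needs only a few group means to line up.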

How the data were processed

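Total RNA in 18 samples was copied with a 3' IVT kit and hybridised to Affymetrix U133 Plus 2.0 arrays, per the labels' protocols. The values are log2 expression values of 54675 probe sets that the authors deposited after GCRMA, per the submitters' processing notes. GCRMA corrects background by probe sequence, which packs unexpressed probe sets into low values, and the sources used here give neither its version nor whether all arrays were normalised jointly. Arrays give no counts, so their number limits the precision.

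Groups came from the sample labels. Probe sets were named by GEO's platform annotation with symbols updated through RefSeq (41091 with 1 symbol, 1801 with several, 11721 with none), and 62 platform controls were left out. The 24871 probe sets above a floor of 4 (log2) on 3 or more arrays were tested with limma 3.58.1 in R 4.3.3, in 1 model of 6 group means with 12 residual degrees of freedom, trend and robust moderation, and Benjamini-Hochberg adjustment at 0.05. A probe set under 4 on all arrays of the lower group has only a bound, the difference of the higher mean from 4. The code was tested on simulated data. No other columns of sample values were present (0).

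Members and lists were chosen with earlier results of these data known. All probe sets of the listed genes are described. The lists (glucuronidation, steroid reduction and oxidation, steroid synthesis, P450 and sulfation, peroxisomal beta-oxidation, androgen-driven genes, and luminal, hepatocyte, leukocyte, endothelial and fibroblast markers) were read by each gene's probe set of highest mean, and up to 3 called genes of smallest p were named per list and comparison. ALB, AKR1C1, AKR1C2, COL1A1, HOMER2, COL3A1, LUM, KRT8 and KRT18, and KLK2, KLK3, TMPRSS2 and FKBP5 by array, were named after their values were seen. Alternatives were 2 other filters, 2 scalings, plain moderation, 1 probe set per gene, the compared groups alone, array weights, the replicate number as a block and leaving out each array. Promoter sequences are RefSeq's on GRCh38.p14.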

Additional observations from a re-analysis of the deposited data

Results flagged for a closer look

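For 4 genes the ONECUT2 overexpression change in LNCaP and that in 22Rv1 had a difference past the threshold when it was itself tested (limma, adjusted over all tested probe sets). UGT2B4 had a difference of -1.47 ± 0.39 on the log2 scale (adjusted p = 0.0066), with every LNCaP OE array under the floor. With the LNCaP change at its bound of -1.55, against -1.32 in 22Rv1, a difference between the lines is not shown. HSD17B4 had -0.72 ± 0.13 (adjusted p = 0.000342), with all 3 LNCaP OE arrays below the LNCaP controls. UGT2B17 had -4.83 ± 1.60 (adjusted p = 0.0242), with every 22Rv1 array under the floor. AKR1C3 had 3.00 ± 0.57 (adjusted p = 0.000575), with LNCaP control under the floor. For UGT2B17 and AKR1C3 no fall could be read in the line under the floor, so a different action of overexpression is not shown.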

How the results depend on the processing

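Among the 70 results of the 10 tested probe sets in 7 comparisons, no called change took the other sign under any alternative, while 7 changes that were not called, of at most 0.0993 log2 units, did. The call was the same in 70 with arrays centred, with plain moderation and with the stricter filter, in 68 with no filter, in 67 after a second quantile normalisation, in 45 with only the compared groups (18 gained, 7 lost) and in 50 with array weights (20 gained). Weights of the LNCaP OE arrays were 0.0588, 0.363 and 1.71. The comparisons below run in the order 22Rv1 OE, LNCaP OE, shONECUT2 against scramble, LNCaP OE effect against 22Rv1 OE effect, scramble against control, shONECUT2 against control, and LNCaP control against 22Rv1 control. All calls were 14185, 14371, 6594, 10309, 5376, 1278 and 15733 of 24871 probe sets, and 7392, 7557, 3593, 5432, 2659, 542 and 7736 of 12159 with 1 probe set per gene, where fewer are tested and 5 of 7 listed genes were called in LNCaP OE. With only the compared groups, all calls were 8449 for scramble and 3401 for shONECUT2 against control, and listed probe sets called were 6 in 22Rv1 OE, 2 in LNCaP OE, 7 in shONECUT2 against scramble, 8 in scramble and 3 in shONECUT2 against control, and 6 between the control lines. With array weights, all calls were 11356 in shONECUT2 against scramble, 10661 in scramble and 5306 in shONECUT2 against control, and listed probe sets called were 7, 7 and 3 there, 8 for the difference of effects and 5 between the control lines. The cause was not tested. Leaving out 1 array gave 12655 to 16596, 12854 to 16897, 4791 to 10146, 9119 to 14227, 3714 to 8701, 458 to 3748 and 14424 to 17921 calls, the highest each time without LNCaP OE replicate 1, and 3 to 3, 6 to 10, 3 to 7, 3 to 9, 1 to 7, 0 to 3 and 3 to 4 listed probe sets. Deviations of same-numbered arrays of different groups had correlations from -0.181 to 0.386 over 45 pairs, 7 over 0.1. The highest were 0.386 and 0.266, for replicates 2 and 3 of 22Rv1 control and scramble. Differently numbered arrays were not correlated for reference, so whether the numbers pair the arrays cannot be told. With the replicate block, 1 listed probe set, AKR1C3, was called in shONECUT2 against control (adjusted p = 0.0469), and no other listed call changed. Signal near the floor limits UGT2B4, UGT2B17 and AKR1C3.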
